A study of Mus musculus with 20 samples.

Results

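The epidermal differentiation complex is a cluster of genes on mouse chromosome 3 whose products build the outer, cornified layer of the epidermis. Its members were taken by name: gene symbols counted at both stages that begin with Lce, Sprr or S100a, together with Flg, Flg2, Hrnr, Rptn, Ivl, Tchh, Tchhl1, Crct1, Lelp1, Kprp, Prr9 and loricrin (Lor). This gave 60 members among 23932 gene symbols. They comprised 14 Lce1 genes, 7 other Lce genes, 15 Sprr genes, 13 S100a genes, 6 fused S100 genes (Flg, Flg2, Hrnr, Rptn, Tchh and Tchhl1) and 5 genes of no larger family (Lor, Ivl, Crct1, Kprp and Prr9). Lelp1 and S100a5, listed at E16 only, and Sprr2e, listed at E17 only, were not members.

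The study measured messenger RNA in single phalanges (the segments that make up a digit) of mouse embryos, at embryonic day 17 (E17) and at embryonic day 16 (E16). At either stage 10 libraries were made, 5 from the hindlimb and 5 from the forelimb: digit 1 gave a distal and a proximal phalanx, and digit 2 also a middle one. Tissue of 10 embryos was pooled for an E17 library and of 20 embryos for an E16 library, with 1 library per combination of stage, limb and phalanx. Genotype and strain are not given in the sources used here, and no treatment is named for any group. With no replicate pools, the tests rest on the agreement of libraries that are alike in all but 1 factor, and stage cannot be told apart from pool, pool size or count table.

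During terminal differentiation a keratinocyte replaces its membrane with a cornified envelope, a protein shell crosslinked by transglutaminases. Involucrin (Ivl) is an early scaffold of that shell, loricrin is its main building block, the small proline-rich proteins (Sprr) act as crossbridges, and the late cornified envelope proteins (Lce) are added late. Among the fused S100 proteins, which include hornerin (Hrnr), filaggrin (Flg) is stored in granules as a precursor. The precursor is cut into small pieces that bundle keratin filaments. The S100a proteins are small calcium-binding proteins found in many cell types. The distal phalanx carries the nail, an appendage built of hard keratins.

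Since the members lie side by side, the 300 bases around the start of 6 genes are shown, from 250 bases before to 50 after it. The 6 were picked because their transcripts followed different patterns: Lor and its neighbour Prr9, Sprr2b and Rptn, and Flg and Lce1a1. The sequences are those of RefSeq on GRCm38.p6, an earlier build than the GRCm39 build of the counts, and 52 of the 60 members had one. Capitals mark TATAAA, the TATA box motif, and TGANTCA, a site of the kind bound by AP-1 factors, both searched on both strands.
Lor, chr3:92083093-92083392, minus strand: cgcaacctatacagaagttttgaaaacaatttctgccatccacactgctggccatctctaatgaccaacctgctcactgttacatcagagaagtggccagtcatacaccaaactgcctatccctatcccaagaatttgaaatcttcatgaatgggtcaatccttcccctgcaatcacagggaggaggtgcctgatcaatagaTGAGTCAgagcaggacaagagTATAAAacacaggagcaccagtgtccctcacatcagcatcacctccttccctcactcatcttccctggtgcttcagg
Prr9, chr3:92123898-92124197, minus strand: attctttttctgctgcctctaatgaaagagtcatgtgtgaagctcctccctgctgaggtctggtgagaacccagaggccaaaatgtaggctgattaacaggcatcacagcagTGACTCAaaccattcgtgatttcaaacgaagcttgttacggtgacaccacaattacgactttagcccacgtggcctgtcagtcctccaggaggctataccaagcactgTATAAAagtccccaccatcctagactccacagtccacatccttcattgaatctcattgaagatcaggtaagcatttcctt
Sprr2b, chr3:92316455-92316754, plus strand: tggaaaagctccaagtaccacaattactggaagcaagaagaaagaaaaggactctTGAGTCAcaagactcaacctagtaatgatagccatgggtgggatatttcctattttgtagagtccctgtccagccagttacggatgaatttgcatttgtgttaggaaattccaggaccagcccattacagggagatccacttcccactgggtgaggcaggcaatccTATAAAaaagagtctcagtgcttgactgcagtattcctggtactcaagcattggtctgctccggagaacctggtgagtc
Rptn, chr3:93393449-93393748, plus strand: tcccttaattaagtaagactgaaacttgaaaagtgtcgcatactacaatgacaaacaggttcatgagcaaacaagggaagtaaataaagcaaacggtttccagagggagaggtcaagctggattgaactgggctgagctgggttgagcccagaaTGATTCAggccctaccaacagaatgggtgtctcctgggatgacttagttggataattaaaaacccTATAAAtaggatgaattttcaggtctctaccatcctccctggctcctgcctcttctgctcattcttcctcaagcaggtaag
Flg, chr3:93273296-93273595, plus strand: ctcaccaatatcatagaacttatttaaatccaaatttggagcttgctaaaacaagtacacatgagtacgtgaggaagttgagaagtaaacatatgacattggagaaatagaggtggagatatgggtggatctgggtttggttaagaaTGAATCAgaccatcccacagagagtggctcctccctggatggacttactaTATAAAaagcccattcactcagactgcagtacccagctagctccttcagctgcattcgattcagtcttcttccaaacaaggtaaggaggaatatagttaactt
Lce1a1, chr3:92648258-92648557, minus strand: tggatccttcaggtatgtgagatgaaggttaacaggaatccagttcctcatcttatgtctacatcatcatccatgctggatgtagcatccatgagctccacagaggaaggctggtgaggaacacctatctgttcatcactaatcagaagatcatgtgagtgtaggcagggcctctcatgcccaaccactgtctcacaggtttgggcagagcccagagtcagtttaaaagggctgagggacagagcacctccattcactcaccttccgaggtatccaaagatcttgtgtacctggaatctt
Of the 6, Lce1a1 had neither motif and the other genes had both. TATAAA was present in 22 of 52 members (42.3%) and in 14.2% of 27025 genes with a sequence of this length. Matches at any position and on either strand count here, in the first listed sequence of each gene. S100a3 held TATAAA and S100a16 held TGANTCA only in a later listed sequence, which is not in these counts. In S100a9 the match began at +1, and in Lce6a and Lce3e at -218 and -243 on the opposite strand. TGANTCA was present in 16 of 52 members (30.8%) and in 7.93% of those genes. By class, 9 of 13 Sprr sequences held TATAAA and 8 of 13 held TGANTCA, whereas 2 of 13 Lce1 sequences held TATAAA and 0 of 13 held TGANTCA. In Sprr2b, Sprr2d, Sprr2f, Sprr2h, Sprr2i and Sprr2k alike, TATAAA began at position -29 counted from the start. A match of letters is a description and not a measured site.

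Total counts ran from 75278309 to 111204552 per library at E17 and from 70871735 to 77361898 at E16. The members together held 0.994% to 1.79% of the counts of joined genes at E17 and 0.232% to 1.07% at E16. Levels are given as CPM (counts scaled to a fixed library total) scaled between libraries by TMM factors, and the tests took in the 14839 genes that reached 1 CPM in 4 or more libraries. Of the 60 members, 50 were tested, and the other 10 (Lce3a, Lce3b, Lce3d, S100a2, Sprr2f, Sprr2g, Sprr2i, Sprr2j-ps, Sprr4 and Tchhl1) reached at most 3.49 CPM in any library. Of the 50 tested members, 17 passed only with the help of E17 libraries and 9 only with the help of distal libraries, so counts over tested members are not counts over the whole complex. Keratinocyte transcripts were present in every library: the summed level of 8 markers of suprabasal keratinocytes was 34027 to 61620 CPM at E17 and 11450 to 24897 CPM at E16. The library of the E16 forelimb digit 1 proximal phalanx was lowest of all 20 for that sum and for the 7 basal keratinocyte markers, at 3016 CPM.

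The E16 forelimb digit 2 distal library stood apart among the distal libraries of its stage. Of the 4 E16 distal libraries it held the highest level of 40 of 50 tested members, including all 14 Lce1 genes, and the E16 hindlimb digit 1 distal library held the lowest level of 34. At E17, 32 members were highest in the forelimb digit 2 distal library and 16 in the forelimb digit 1 distal library. Counts of calls without the E16 forelimb digit 2 distal library are given beside each comparison.

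Hornerin and loricrin dominated the complex. Together they held 56.5% to 81.8% of the members' summed CPM in each of the 20 libraries, the lowest share in the E17 forelimb digit 2 distal phalanx and the highest in the E17 hindlimb digit 2 proximal phalanx. Per kilobase of exon, Lor had the highest mean level at 1489 CPM, followed by S100a11 at 557, Sprr1a at 369, Hrnr at 353 and Prr9 at 193 CPM per kilobase. Lce1m, the highest Lce1 gene, averaged 117 CPM per kilobase over the 20 libraries. The heat map of all tested members shows how unevenly the rest were spread over libraries.

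**Figure D1:**
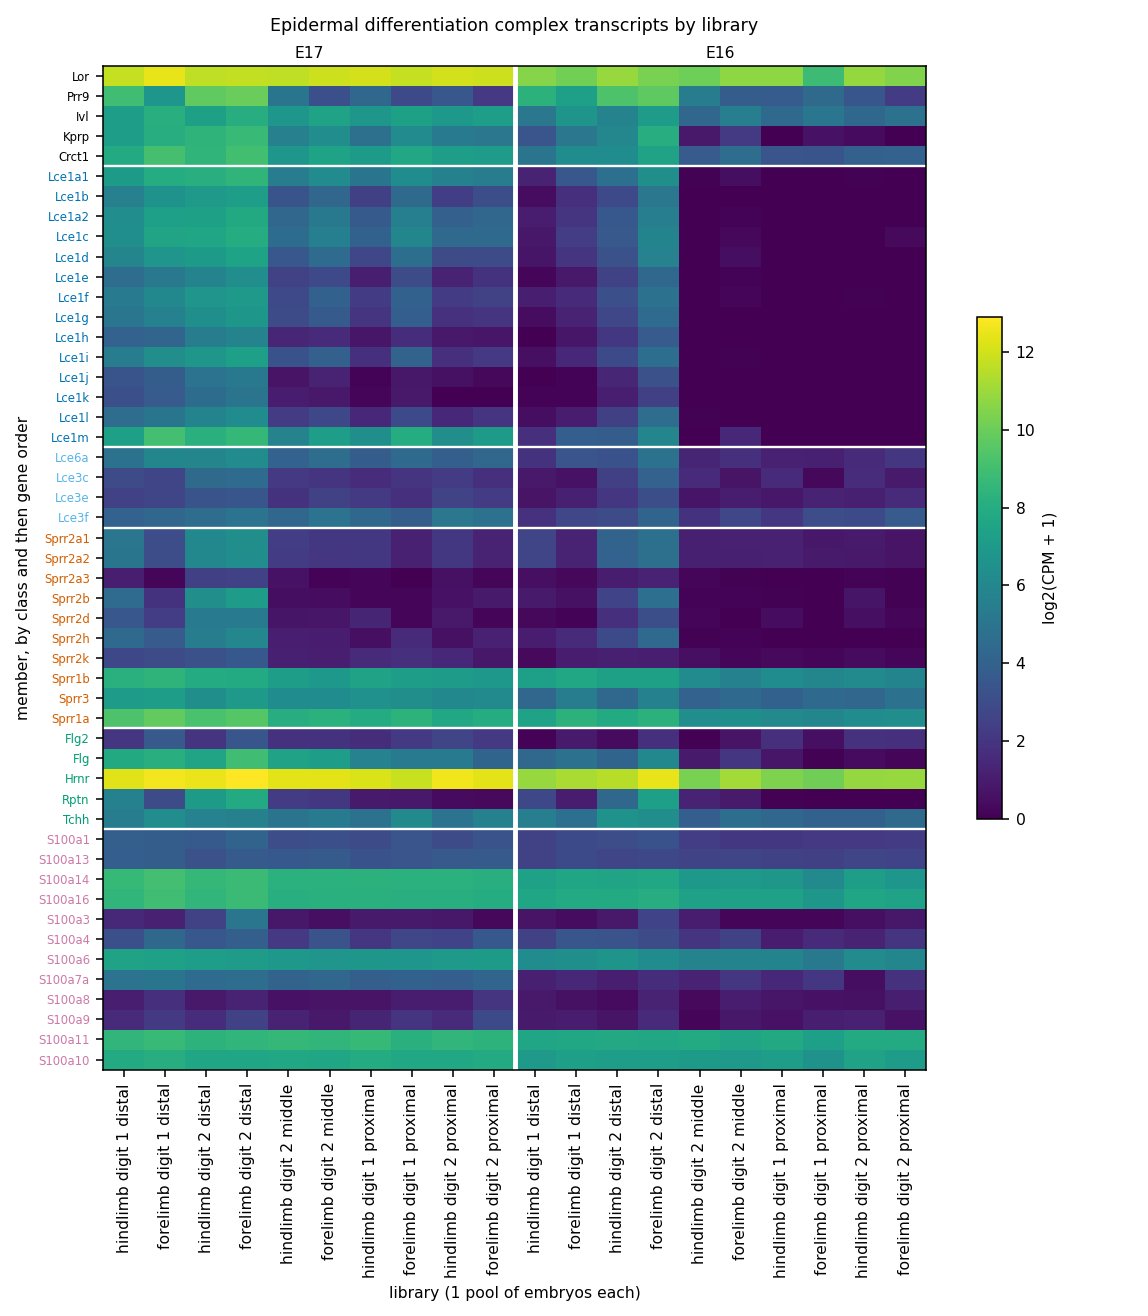
Level of the 50 tested members (rows, by class and gene order) in the 20 libraries (columns, E17 left and E16 right), as log2(CPM + 1). Lor and Hrnr are high in every column, the 14 Lce1 genes are near 0 in the E16 middle and proximal libraries, and Rptn, Prr9 and most Sprr2 genes stand out in the distal libraries.

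The first comparison asked which members changed between the stages. At E17, 49 of the 50 tested members were higher than at E16 and 0 were lower (edgeR quasi-likelihood F test, Benjamini-Hochberg adjusted p at most 0.05), against 65.8% of all tested genes called, 32.2% higher and 33.6% lower. Among the 49 are the 17 members that passed the filter only with the help of E17 libraries. The median change over the 50 members was 2.07 on the log2 scale, E17 minus E16, beside -0.01 over all tested genes. In bulk tissue a larger share of differentiating keratinocytes and more RNA per keratinocyte cannot be told apart. The 10 libraries of one stage did not overlap those of the other for 8 members, which were Lor, Sprr3 and 6 S100a genes, and for 13.6% of all tested genes. The 6 include S100a7a and S100a6, the latter at most 102 CPM at E16 and at least 105 CPM at E17. For both, counts of a read-through transcript listed at E16 only, described below, are left out. Without the E16 forelimb digit 2 distal library 49 members were higher.

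Loricrin and hornerin rose by similar amounts. Lor had 3260, 3698 and 5577 CPM (lowest, median and highest of 10 libraries) at E17, against 466, 1479 and 1957 CPM at E16. Every E17 library stood above every E16 library, and the log2 change was 1.48 ± 0.19 (SE, adjusted p = 2.01e-06). Hrnr had 3596, 5352 and 7715 CPM at E17, against 1095, 1922 and 5772 CPM at E16, a log2 change of 1.44 ± 0.15 (adjusted p = 1.87e-07). For Hrnr the stages overlapped, because the E16 forelimb digit 2 distal library reached 5772 CPM. Ivl, the early scaffold, had 110, 157 and 283 CPM at E17, against 18.1, 33.5 and 134 CPM at E16, and rose by 2.04 ± 0.15 on the log2 scale.

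Filaggrin, the neighbour of hornerin, had a larger fitted change, and the difference between these genes was not tested. Flg had 17, 159 and 495 CPM (lowest, median and highest of 10) at E17, against 0.0528, 2.03 and 65.4 CPM at E16. The log2 change was 4.88 ± 0.53 (adjusted p = 3.99e-07), and the stages overlapped because some E16 distal phalanges stood above some E17 proximal ones. Kprp, a keratinocyte proline-rich protein, had 26.4, 77.1 and 409 CPM at E17, against 0, 2.19 and 265 CPM at E16, with a log2 change of 4.44 ± 0.64. Crct1, which lies between the Lce3 genes and Lce1m, had 108, 192 and 550 CPM at E17, against 9.22, 19.5 and 174 CPM at E16, with a log2 change of 3.01 ± 0.23. For Kprp and Crct1 alike the highest E16 library was the forelimb digit 2 distal one.

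Repetin (Rptn), Flg2 and trichohyalin (Tchh), the last a protein known from the hair follicle inner root sheath, were the other tested genes of the fused S100 group. Rptn rose by 2.11 ± 0.53 on the log2 scale, with medians of 3.55 CPM at E17 and 0.973 CPM at E16 that hide a range up to 239 and 156 CPM. Flg2 was low throughout, at 2.24, 3.25 and 11.3 CPM (lowest, median and highest) at E17 and 0.0541, 0.758 and 2.64 CPM at E16, and rose by 2.16 ± 0.53. Tchh had 28.5, 44.8 and 79.7 CPM at E17, against 13.6, 22.5 and 93.9 CPM at E16, and rose by 0.68 ± 0.25 (adjusted p = 0.0241). Tchh was higher at E17 in 7 of 10 matched pairs, its highest library was an E16 one, and the call was lost without either of the E16 forelimb digit 1 libraries (highest adjusted p = 0.0569).

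The 14 Lce1 genes were the class with the highest median change, 5.36 on the log2 scale, with a range of 4.90 to 6.50. All but Lce1a1, Lce1f and Lce1m passed the filter only with the help of E17 libraries. The rank of the class therefore partly restates the filter. Lce1m rose by 6.50 ± 0.72, Lce1a1 by 5.96 ± 0.70 and Lce1c by 5.95 ± 0.59 (adjusted p = 4.27e-07, 8.96e-07 and 1.25e-07). Lce1m had 54.2, 155 and 533 CPM at E17, against 0, 0.919 and 57.7 CPM at E16. Lce1a1 had 31.2, 76.3 and 347 CPM at E17, against 0, 0.239 and 85.5 CPM at E16. Lce1c had 14.9, 52.9 and 256 CPM at E17, against 0, 0.238 and 55.6 CPM at E16. The stages overlapped for all 14 genes, since the E16 forelimb digit 2 distal library held more of each than at least 1 E17 library.

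Among the other Lce genes, all 4 tested members rose. Lce6a had 13.2, 21.7 and 74.1 CPM at E17, against 1.21, 2.62 and 28.3 CPM at E16, a log2 change of 2.90 ± 0.21. Lce3f had 13.1, 21.6 and 33.5 CPM at E17, against 2.53, 6.15 and 17.2 CPM at E16, and rose by 1.90 ± 0.19 on the log2 scale. Lce3c was lower, with medians of 3.57 CPM at E17 and 1.41 CPM at E16, and rose by 1.55 ± 0.36. The Lce3 genes resemble each other: 24.1% of the 100-base windows of Lce3c and 43.0% of those of Lce3f occur in another Lce3 gene, so counts could be split between them.

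All 10 tested Sprr genes rose, with a median log2 change of 1.86. Sprr1a had 212, 311 and 912 CPM at E17, against 60.0, 82.5 and 319 CPM at E16, a log2 change of 1.68 ± 0.10. Sprr1b had 116, 163 and 338 CPM at E17, against 49.8, 76.2 and 205 CPM at E16, and rose by 0.94 ± 0.09. Sprr3 had 63.5, 83.7 and 147 CPM at E17, against 15.0, 19.8 and 49.6 CPM at E16, and rose by 1.99 ± 0.15. Sprr1a and Sprr1b overlapped between stages through E16 distal phalanges, and Sprr3 did not overlap. Sprr2a1 and Sprr2a2 share 92.5% and 92.8% of their 100-base windows with near-identical copies, so their counts are uncertain as to the gene.

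The 12 tested S100a genes rose least as a class, with a median log2 change of 1.05. S100a11 had 290, 360 and 418 CPM at E17, against 153, 219 and 236 CPM at E16, a log2 change of 0.77 ± 0.07, though 34.0% of its 100-base windows occur in other genes. S100a14, known from epithelia, had 286, 309 and 537 CPM at E17, against 69.99, 135 and 211 CPM at E16, and rose by 1.35 ± 0.10. S100a16 had 253, 294 and 493 CPM at E17, against 113, 184 and 261 CPM at E16, and rose by 0.80 ± 0.08. S100a10 rose by 0.68 ± 0.07 and S100a8 by 0.68 ± 0.27 (adjusted p = 0.0362), with Tchh the lowest changes among members called. The S100a8 call was lost without any 1 of 11 libraries (highest adjusted p = 0.0795). It held without the E17 library of forelimb digit 1 proximal, forelimb digit 2 distal, forelimb digit 2 middle, hindlimb digit 1 proximal or hindlimb digit 2 proximal, and without the E16 library of forelimb digit 2 distal, forelimb digit 2 middle, hindlimb digit 1 distal or hindlimb digit 1 proximal. S100a8 and S100a9, which neutrophils also make, stayed at or below 3.02 and 6.45 CPM in every library, and the summed level of 8 neutrophil genes was 3.25 to 13.8 CPM at E17 and 2.22 to 6.13 CPM at E16.

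The change of S100a7a depends on a neighbouring read-through transcript. S100a7a had 13.8, 17.7 and 30.9 CPM at E17, against 0.411, 1.77 and 3.19 CPM at E16, a log2 change of 3.48 ± 0.24. The E16 table alone also lists a transcript that reads through S100a6 and S100a7a, with 195 to 1541 counts per library. With those counts added to S100a7a, an alternative chosen after seeing the data, its log2 change was 0.81 (adjusted p = 4.91e-05), and with them added to S100a6 that gene's change was 0.81 in place of 1.01. The S100a3 call (log2 change 1.37 ± 0.52, adjusted p = 0.027) was lost without the E16 forelimb digit 1 distal, E16 hindlimb digit 1 proximal or E17 forelimb digit 2 distal library (highest adjusted p = 0.0965), and the last of these held 32.2 CPM.

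Prr9 was the single tested member that did not pass in the stage comparison. It encodes a proline-rich protein and lies directly beside Lor, yet it had 3.40, 25.3 and 1006 CPM at E17, against 3.84, 31.7 and 824 CPM at E16. Its log2 change was -0.15 ± 0.26 (adjusted p = 0.641), and it was higher at E17 in 5 of 10 matched pairs. The difference between Lor and Prr9 was not tested.

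Genes that act on the envelope were higher at E17 too. All 14 tested genes of envelope crosslinking and processing were higher at E17, with a median log2 change of 1.36. Cdsn, a protein of the junctions between cornified cells, and the protease Klk7 had the highest changes, 2.74 ± 0.27 and 2.60 ± 0.27. Of 8 suprabasal keratinocyte markers 6 rose, Krt10 by 1.86 ± 0.11, while the median log2 change of 7 basal markers was 0.20, with 4 higher and 2 lower. Markers of other tissues moved as well: 5 of 5 chondrocyte genes were lower at E17 and 6 of 6 skeletal muscle genes higher, with median log2 changes of -1.76 and 1.84, and their part in the members' change was not tested.

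Of 17 tested regulators of keratinocyte differentiation, 12 were higher at E17 and 3 lower. Junb, an AP-1 factor, had the highest change among those that rose, at 1.34 ± 0.13 on the log2 scale. The AP-1 motif counts given above do not say whether it binds there. Cebpb had 8.12 ± 1.51 CPM at E17 and 94.4 ± 26.0 CPM at E16 (SD, n = 10 each) and fell by 3.52 on the log2 scale (SE 0.16). Since each stage has its own count table, how far counting differs between the tables for Cebpb was not tested.

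**Figure D2:**
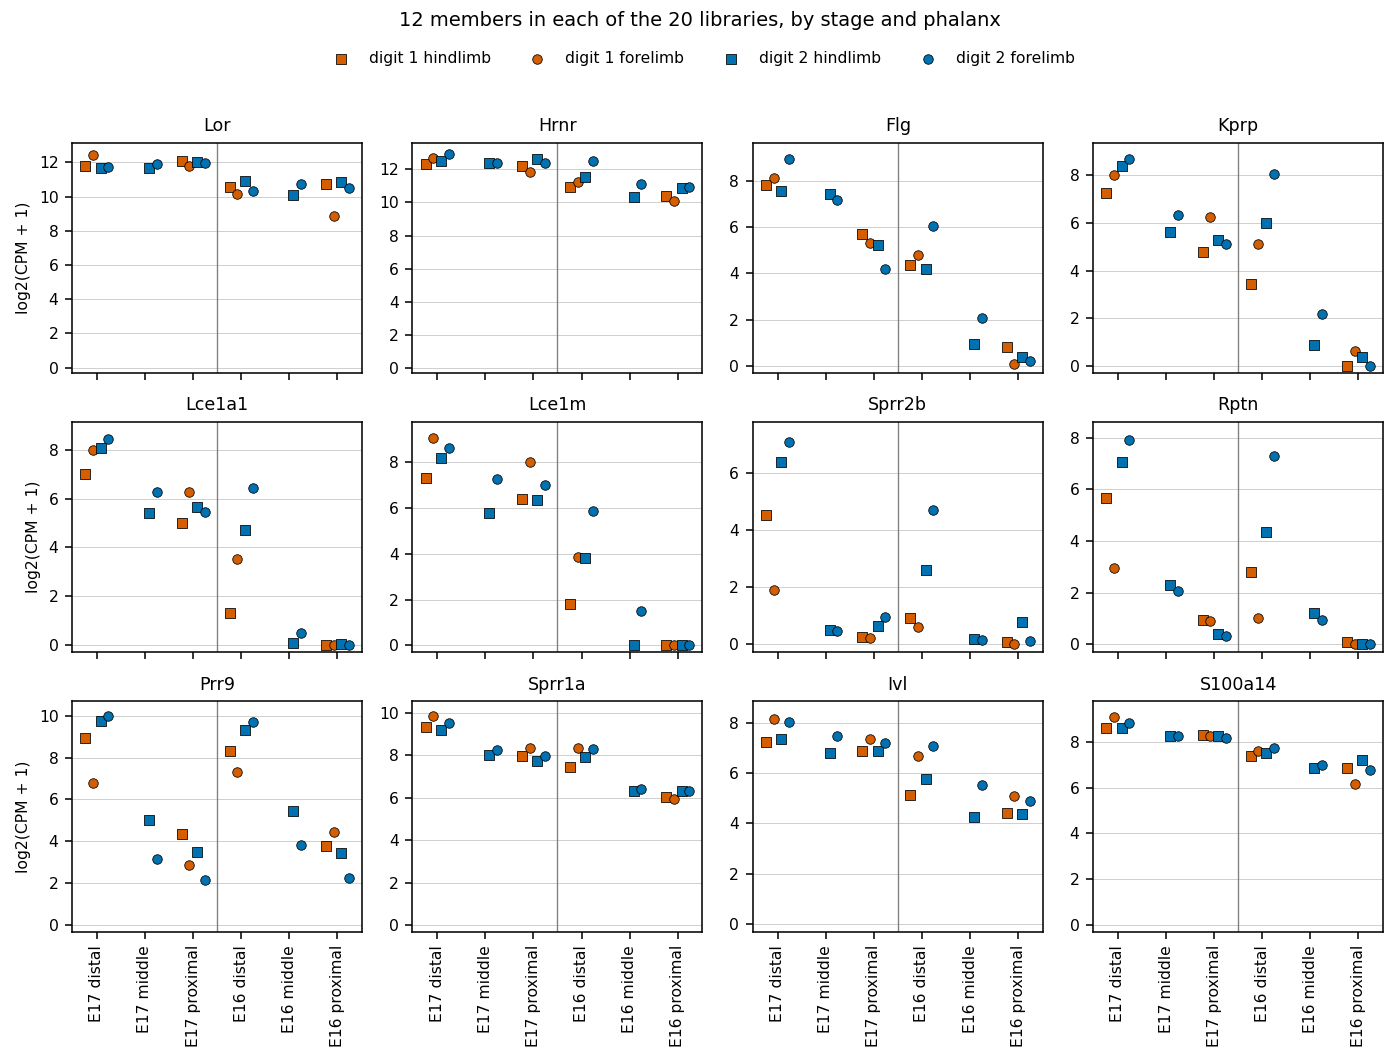
Levels of 12 members as log2(CPM + 1) in each of the 20 libraries, by stage and phalanx, E17 left and E16 right; colour gives the digit and marker shape the limb. Lor is higher at E17, and its distal level lies above the proximal one in forelimb digit 1 but below it in hindlimb digit 1. Prr9 is distal at both stages without a stage step, and Lce1a1, Lce1m, Kprp and Flg are low outside the distal phalanx at E16.

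The second question was how the members were distributed along the digit. In the distal phalanges 41 of 50 tested members were higher than in the proximal ones and 0 were lower, against 46.8% of all tested genes called, 23.3% higher and 23.4% lower. Among the 41 are Lce1h, Lce1j, Lce1k, Rptn, S100a3, Sprr2a3, Sprr2b and Sprr2d, which passed the filter only with the help of distal libraries. The median log2 difference over members, distal minus proximal, was 2.26, beside 0.01 over all tested genes. All 14 Lce1 genes and all 10 tested Sprr genes were higher distally, as were 6 of 12 S100a genes. The 9 members that did not pass were Lor, Lce3f, Flg2, S100a7a, S100a8, S100a9, S100a10, S100a11 and S100a13, and the groups did not overlap for 2 members, Rptn and Prr9, and for 6.9% of all tested genes. Without the E16 forelimb digit 2 distal library 41 members were higher.

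Repetin was among the most distal transcripts. Rptn had 1.01, 34.5 and 239 CPM (lowest, median and highest of 8 libraries) in distal phalanges, against 0, 0.164 and 0.915 CPM in proximal ones. The log2 difference was 7.61 ± 0.68 (adjusted p = 5.95e-08). Prr9 had 111, 559 and 1006 CPM in distal phalanges, against 3.40, 10.2 and 20.9 CPM in proximal ones, a log2 difference of 5.59 ± 0.35 (adjusted p = 8.07e-10). Sprr2b was higher distally by 6.13 ± 0.62, with 0.490 CPM in its lowest distal library and 0.913 CPM in its highest proximal one. The highest fitted differences also included Lce1k at 9.20 ± 0.80 and Lce1j at 6.19 ± 0.69, but Lce1k had 0 counts in 6 of 8 proximal libraries, so the size of its value depends on the fit. Rptn, Sprr2b, Lce1k and Lce1j passed the filter only with the help of distal libraries, so their high rank partly restates the filter.

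Loricrin showed no such distribution. Lor averaged 2703 ± 1514 CPM distally and 2678 ± 1486 CPM proximally (SD, n = 8 each), and the log2 difference was 0.07 ± 0.20 (adjusted p = 0.806). Hrnr was higher distally by 0.69 ± 0.16, and Ivl by 1.09 ± 0.17. The lowest differences among members called were those of S100a6 at 0.51 ± 0.09, S100a16 at 0.55 ± 0.09 and Sprr3 at 0.62 ± 0.16. With E17 libraries alone the Hrnr and Tchh calls were lost, and with E16 libraries alone those of Lce3c, Lce3e, S100a3 and Sprr2d.

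**Figure D3:**
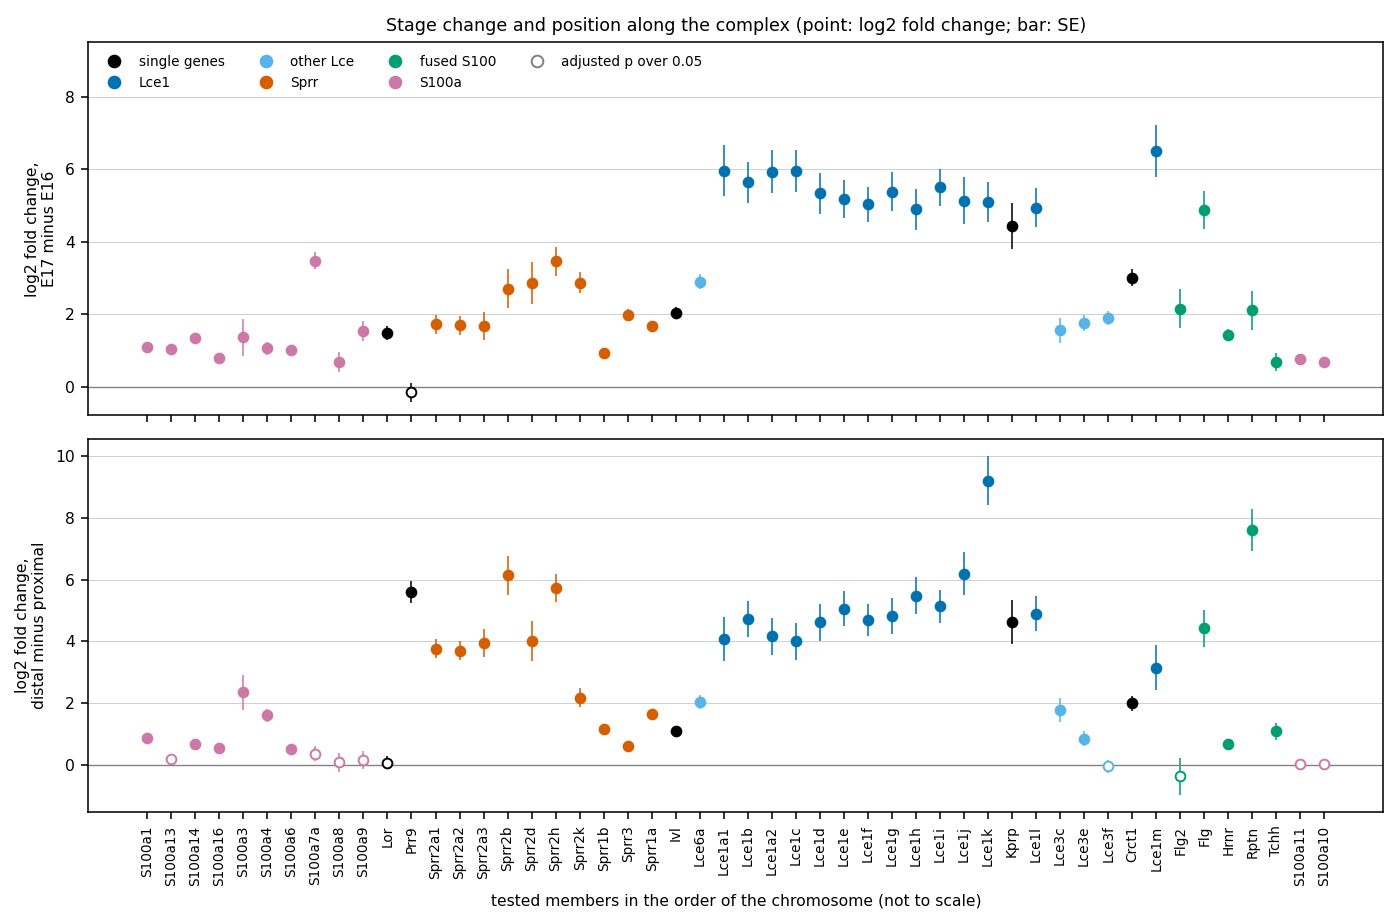
Log2 fold change with its SE for the 50 tested members in chromosome order, E17 minus E16 above and distal minus proximal below; open points did not pass. Lor and Prr9 stand side by side with different profiles: Lor passed by stage and not by position, and Prr9 by position and not by stage, and the Lce1 block is high in both panels.

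Along the chromosome, neighbours could differ. In the GENCODE M21 annotation of GRCm38, the order runs from most S100a genes through Lor, Prr9, the Sprr genes, Ivl, Lce6a, the Lce1 block, the Lce3 genes, Crct1 and Lce1m to the fused S100 genes, then S100a11 and S100a10. Lor and Prr9 are next to each other, and both sequences printed above hold TATAAA (at position -27 in Lor and -30 in Prr9) and TGANTCA (at -48 and -138). Hrnr and Rptn are also next to each other, with distal minus proximal log2 differences of 0.69 and 7.61. Kprp sits within the Lce1 block, between Lce1k and Lce1l, and its stage change of 4.44 was near their values of 5.09 and 4.94.

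Neighbouring phalanges of digit 2 were then compared. In the distal phalanx 43 of 50 tested members were higher than in the middle phalanx and 0 were lower, against 33.1% of all tested genes called, 16.3% higher and 16.8% lower. The 43 include members that passed the filter only with the help of distal libraries, such as Lce1h, Lce1j, Lce1k, Sprr2a3, Sprr2b and Sprr2d. For 14 members the 4 distal and 4 middle libraries did not overlap, as was the case for 19.2% of all tested genes. Without the E16 forelimb digit 2 distal library 41 members were higher. With E17 libraries alone 37 were higher and with E16 libraries alone 36, and 11 of the 43 calls, Flg and Hrnr among them, were lost in 1 or both of these. Sprr2b had 62.0 ± 59.0 CPM in distal and 0.244 ± 0.161 CPM in middle phalanges (SD, n = 4 each), a log2 difference of 7.98 ± 0.88. Lce1j and Sprr2h followed at 6.69 ± 0.94 and 6.46 ± 0.65, and the lowest called were S100a16 at 0.52 ± 0.13, S100a6 at 0.54 ± 0.12 and S100a14 at 0.58 ± 0.15. Sprr2b and Lce1j passed the filter only with the help of distal libraries, so their rank here partly restates the filter. Lor (0.05 ± 0.29) and the suprabasal keratins Krt1 (0.09 ± 0.17) and Krt10 (0.01 ± 0.17) did not pass in the same comparison, and those keratins were chosen after their values were seen. Of the 8 suprabasal markers 3 were higher in the distal phalanx and 0 lower, with a median log2 difference of 0.41. The Lce3f call was lost without the E16 forelimb digit 2 distal, E16 forelimb digit 2 middle or E16 hindlimb digit 2 middle library (highest adjusted p = 0.187). The Sprr3 call was lost without any of the same libraries or the E17 forelimb digit 2 middle library (highest adjusted p = 0.171).

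The middle phalanx was set apart from the proximal one by few members. Of 50 members, 3 were higher in the middle phalanx (Lce1k, Rptn and Prr9) and 0 lower, against 3.8% of all tested genes called, 1.86% higher and 1.94% lower. Rptn had 3.90 and 1.33 CPM in the hindlimb middle phalanges and 3.20 and 0.938 CPM in the forelimb ones (E17 and E16), against 0.318 CPM or less in all 4 proximal phalanges of digit 2. It was the one tested member for which these groups did not overlap, as they did not for 5.67% of all tested genes. The log2 difference of Rptn was 4.13 ± 1.07 (adjusted p = 0.038), and that of Prr9 was 1.72 ± 0.43 (adjusted p = 0.0301). Lce1k averaged 0.453 CPM in middle phalanges and had 0 counts in the 4 proximal libraries, which makes it at least 47.2-fold higher against a floor of 3 counts over that group, for counting error only. None of the 3 calls held in every single omission. Without the E17 forelimb digit 2 proximal, E17 hindlimb digit 2 proximal or E17 hindlimb digit 2 middle library 0 members passed. Without any 1 of the 4 E16 middle and proximal libraries of digit 2, 1 member passed, and without the E16 forelimb digit 2 distal library 4 passed.

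Trichohyalin was highest in the digit 2 distal phalanges of E16. Tchh had 52.2 and 48.0 CPM in the hindlimb and forelimb digit 2 distal phalanges at E17, and 93.9 and 83.2 CPM in those at E16. In the digit 2 middle phalanges it had 30.1 and 39.3 CPM at E17 and 13.6 and 24.1 CPM at E16. Distal and middle phalanges did not overlap, and the log2 difference was 1.61 ± 0.39.

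The envelope-processing genes were distal too: 14 of 14 were higher distally than proximally, with a median log2 difference of 0.75, led by the transglutaminase Tgm5 at 3.28 ± 0.21 and Cdsn at 2.78 ± 0.30. Of 17 tested regulators 11 were higher distally and 1 lower, with Hr at 1.75 ± 0.11 and Prdm1 at 1.08 ± 0.09. Among 10 genes of periderm and stressed epithelium 6 were higher and 1 lower, and Krt16, a keratin of stressed epithelium, was higher by 5.32 ± 0.22. Of the suprabasal markers 7 of 8 were higher distally, with a median of 0.70, and of the basal markers 6 of 7, with a median of 0.37.

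Hard keratins of nail and hair moved in the same direction. Their summed level over 11 genes was 711 to 14714 CPM in the distal set, against 5.20 to 25.0 CPM in the proximal set, and all 11 were higher distally. In digit 2 the sum was 52.4 to 149 CPM in the middle phalanx, against 5.20 to 14.8 CPM in the proximal one. Their part in the distal levels of the complex was not tested. Macrophage, fibroblast and endothelial markers were lower distally, in 8 of 8, 6 of 6 and 5 of 5 genes.

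At E17 the Lce1 genes, except Lce1k, were measured along the whole digit, and at E16 all 14 mainly in the distal phalanx. Their summed level over 14 genes was 752, 1631, 1685 and 2217 CPM in the E17 distal phalanges of hindlimb digit 1, forelimb digit 1, hindlimb digit 2 and forelimb digit 2, and 165 to 547 CPM in the other 6 libraries of that stage. At E16 it was 9.19, 43.9, 110 and 471 CPM in the same 4 distal phalanges. In the 6 E16 middle and proximal libraries it was 0 to 3.32 CPM, from 292 counts in all. In those 6 libraries 5 Lce1 genes (Lce1b, Lce1g, Lce1h, Lce1j and Lce1k) had 0 counts. Against a floor of 3 counts over those libraries, they were at least 68.1-fold (Lce1k) to 1584-fold (Lce1b) higher in the same phalanges pooled at E17. The floor covers counting error only. Lce1k had 0 counts in the hindlimb and forelimb digit 2 proximal libraries of E17. The 5 genes were picked for their 0 counts and passed the filter only with the help of E17 libraries. These folds therefore partly restate that choice.

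The Lce1 genes differed in how far they spread beyond the distal phalanx at E17. Lce1m reached 36.9% of its distal mean in the middle and proximal phalanges, with 343 ± 158 CPM distally (SD, n = 4) and 126 ± 73.2 CPM elsewhere (SD, n = 6). Lce1a1 reached 21.2%, Lce1c 16.8% and Lce1a2 15.5%. Lce1k reached 2.57%, Lce1j 2.74% and Lce1h 4.13%. The remaining genes lay between 7.98% and 10.9%, among them Lce1i at 8.04%, which lies between Lce1h and Lce1j, and Lce1l at 8.12%, beyond Kprp. Lce1m lies apart from the block, beyond Crct1. The 14 genes come from the same libraries, so their order is a description.

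Filaggrin was also mainly distal at E16, but spread differently at E17. In hindlimb digit 2 at E17 it had 175 CPM in the middle and 188 CPM in the distal phalanx. The summed Lce1 genes had 189 and 1685 CPM there. Flg had 227, 275, 188 and 495 CPM in the E17 distal phalanges of hindlimb digit 1, forelimb digit 1, hindlimb digit 2 and forelimb digit 2, and 19.5, 26.9, 17.2 and 65.4 CPM in the same phalanges at E16. In digit 2 middle phalanges it had 175 and 142 CPM at E17 and 0.907 and 3.16 CPM at E16 (hindlimb and forelimb). In digit 2 proximal phalanges it had 37.1 and 17 CPM at E17 and 0.305 and 0.163 CPM at E16. The E17 middle phalanges lay above the proximal ones, but Flg did not pass between middle and proximal phalanges (log2 difference 2.41 ± 0.75, adjusted p = 0.0965).

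The interaction of stage and position asked whether the stage change differed between distal phalanges and the rest. It passed for 4 of 50 members, all with the smaller log2 change distally, against 0.297% of all tested genes called, 0.108% in that direction and 0.189% in the other. For Flg the log2 change was 3.26 ± 0.44 in distal and 6.59 ± 0.47 in other phalanges, a difference of -3.33 ± 0.61 (adjusted p = 0.0347). The differences were -3.86 ± 0.78 for Kprp, -5.40 ± 0.92 for Lce1a1 and -5.92 ± 1.11 for Lce1a2 (adjusted p = 0.0489, 0.0333 and 0.0387). In CPM the gain ran the other way: Flg gained 264 CPM distally and 76.0 CPM elsewhere, and Lce1a1 gained 219 and 52.8 CPM. The 4 genes were already present in distal phalanges at E16, at means of 14.9 to 92.7 CPM, and at 0.0171 to 0.888 CPM elsewhere. Outside the distal phalanges at E16, Lce1a2 had 8 counts in the forelimb digit 2 middle library and 0 in every other. Lce1a1 had 32 counts in that library and 0 to 5 in each of the others. The size of both differences therefore depends on the fit. Lce1a2 also passed the filter only with the help of E17 libraries, so its difference partly restates the filter. None of the 4 calls held in every single omission. Without any 1 of 16 libraries 0 to 2 members passed (2 without the E16 forelimb digit 2 distal library), while 3 passed without the E17 forelimb digit 1 proximal or E17 forelimb digit 2 proximal library, 4 without the E16 forelimb digit 2 middle library and 8 without the E16 hindlimb digit 1 distal library.

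**Figure D4:**
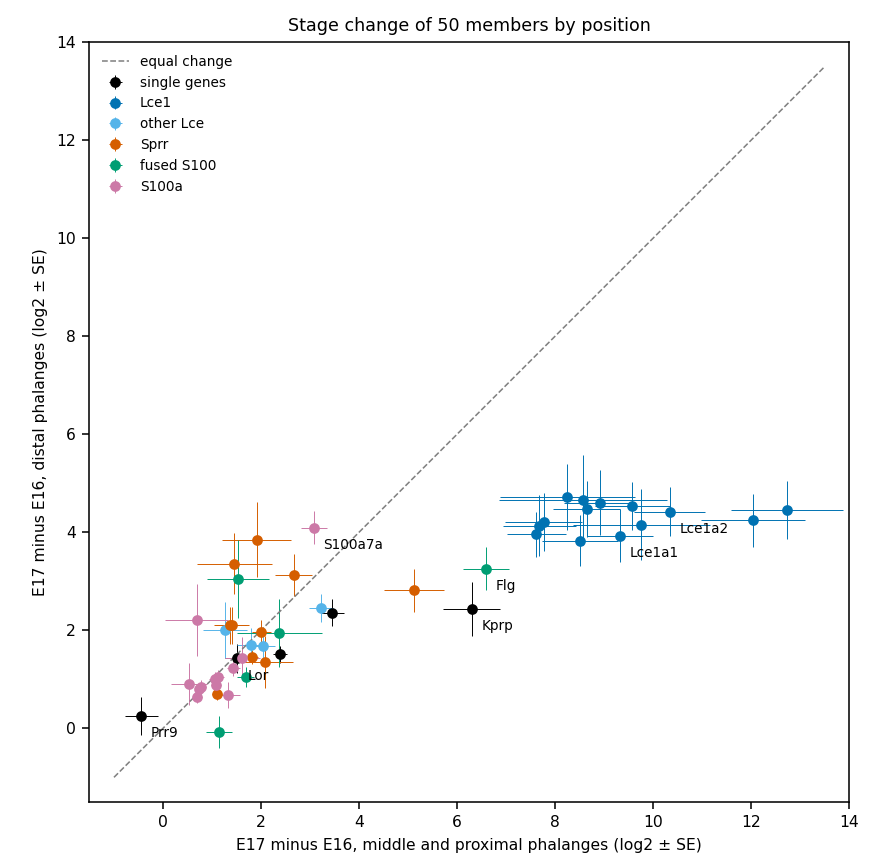
Log2 change, E17 minus E16, with its SE in distal phalanges (vertical axis) against middle and proximal phalanges (horizontal axis) for the 50 tested members; the dashed line marks equal change. The Lce1 genes, Flg and Kprp lie to the right of the line, and most other members lie near it. Values of the 5 Lce1 genes with 0 counts in the E16 middle and proximal phalanges depend on the fit. So do those of Lce1 genes with few counts there, Lce1a1 and Lce1a2 among them.

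The third question was whether digit 1 and digit 2 differ in their distal phalanx. In digit 1, 18 of 50 members were lower than in digit 2 and 0 higher, against 1.5% of all tested genes called, 0.809% lower and 0.687% higher. The 18 were 8 Lce1 genes, 6 Sprr2 genes, Lce3c, Lce3e, Rptn and Prr9. No S100a gene passed, and the S100a median log2 difference was 0.03, beside -2.45 for Sprr and -2.86 for Lce1. Lor (0.08 ± 0.29), Sprr1a (0.01 ± 0.15) and Sprr1b (0.27 ± 0.14) did not pass.

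For Rptn and Sprr2b the forelimb held the wider gap between digits. Rptn had 49.4 and 6.70 CPM in hindlimb and forelimb digit 1 at E17, against 132 and 239 CPM in digit 2. At E16 it had 6.04 and 1.01 CPM in digit 1, against 19.6 and 156 CPM in digit 2. Within each limb and stage digit 1 was lower, and the log2 difference was -3.84 ± 0.77 (adjusted p = 0.0179), the lowest of the members called. Sprr2b had 22.1 and 2.67 CPM in hindlimb and forelimb digit 1 at E17, against 82.5 and 136 CPM in digit 2, and 0.884 and 0.490 CPM in digit 1 at E16, against 5.06 and 25.0 CPM in digit 2. Its log2 difference was -3.80 ± 0.70 (adjusted p = 0.0102), and that of Lce1j was -3.43 ± 0.79.

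Prr9 was the one tested member whose digit 1 and digit 2 libraries did not overlap, as they did not for 2.28% of all tested genes. It had 489 and 111 CPM in hindlimb and forelimb digit 1 at E17, against 860 and 1006 CPM in digit 2, and 319 and 157 CPM in digit 1 at E16, against 630 and 824 CPM in digit 2. The log2 difference was -1.93 ± 0.42 (adjusted p = 0.0276). The smallest differences among those called were Lce3e at -1.73 ± 0.34, Prr9, and Sprr2h at -2.44 ± 0.52. The summed hard keratins followed the same order, at 7095 and 2084 CPM in hindlimb and forelimb digit 1 at E17 against 13051 and 14714 CPM in digit 2, and 3593 and 711 CPM in digit 1 at E16 against 8147 and 10793 CPM in digit 2. Of the 11 hard keratins 3 were lower in digit 1 and 0 higher, and their part in the members' difference was not tested.

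The calls between digits rest on few libraries. Of the 18, 2 (the near-identical Sprr2a1 and Sprr2a2) held in every single omission. The count was 2 without the E16 forelimb digit 1 distal library, 4 without the E16 forelimb digit 2 distal or E17 forelimb digit 1 distal library, 6 without the E16 hindlimb digit 1 distal library and 11 without the E16 hindlimb digit 2 distal library. With E16 libraries alone 11 members were lower in digit 1, and with E17 libraries alone 0. At E17 digit 1 forelimb levels of the 14 Lce1 genes ranged from 31.7% to 137% of those in digit 2, with a median of 51.8%, and at E16 from 1.33% to 23.1%, with a median of 6.47%.

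**Figure D5:**
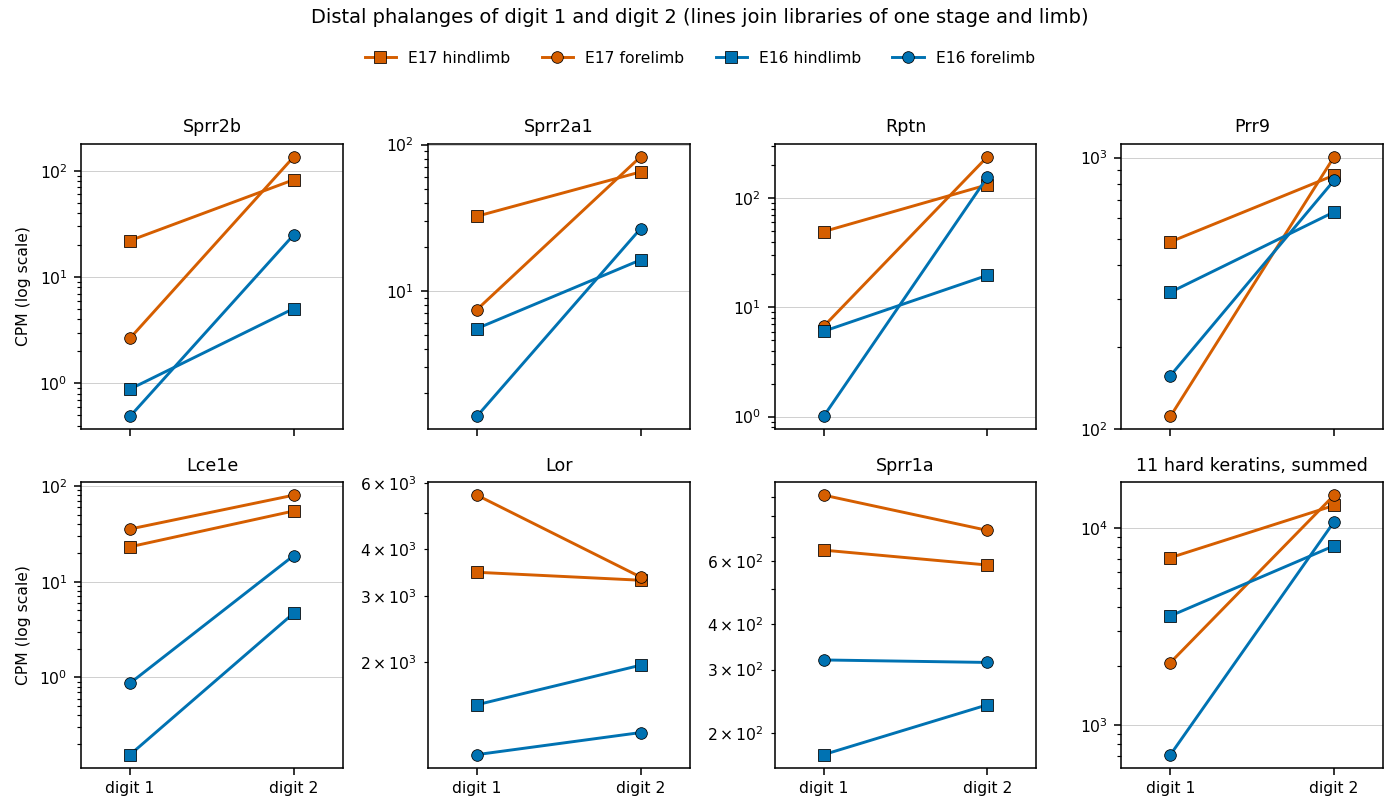
CPM on a log scale in the distal phalanx of digit 1 (left) and digit 2 (right) for 7 members and for the sum of 11 hard keratins; lines join the 2 libraries of one stage and limb. Sprr2b, Sprr2a1, Rptn, Prr9, Lce1e and the hard keratins are lower in digit 1 in all 4 pairs, whereas Lor and Sprr1a change direction between pairs.

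The last comparison was between limbs. In the hindlimb 14 of 50 members were lower than in the forelimb and 1, Prr9, was higher, against 21.1% of all tested genes called, 11.2% lower and 9.89% higher. The lower members were 5 Lce1 genes, Sprr1a, Sprr3, Lce6a, Lce3f, Ivl, Crct1, S100a4, S100a8 and S100a9. Ivl had 18.1, 81.7 and 164 CPM (lowest, median and highest of 10) in the hindlimb, against 28.3, 139 and 283 CPM in the forelimb. It was lower in the hindlimb in all 10 matched pairs, by -0.86 ± 0.15 on the log2 scale (adjusted p = 0.00099). Among the 5 Lce1 genes called the lowest differences were Lce1b at -1.52 ± 0.48, Lce1d at -1.43 ± 0.49 and Lce1c at -1.42 ± 0.49 (adjusted p = 0.0326, 0.0454 and 0.048). The smallest called were Sprr1a at -0.30 ± 0.10 and Sprr3 at -0.45 ± 0.14. Other lists of genes also differed: 5 of 6 fibroblast markers, 6 of 14 envelope-processing genes and 2 of 8 suprabasal markers were lower in the hindlimb with 0 higher, and 3 of 5 chondrocyte markers and 5 of 10 genes of periderm and stressed epithelium were higher with 0 lower. Their part in the members' difference was not tested.

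Prr9 had 9.95, 36.9 and 860 CPM in the hindlimb, against 3.40, 17.1 and 1006 CPM in the forelimb, a log2 difference of 0.97 ± 0.27 (adjusted p = 0.019). It was higher in the hindlimb in 7 of 10 matched pairs, and lower in both digit 2 distal pairs. Of the 15 calls between limbs 4 (Ivl, Lce6a, Prr9 and S100a4) held in every single omission, but with other settings changed 14 of the 15 were lost at least once, Ivl being the exception. The Prr9 call was lost with E17 libraries alone and with E16 libraries alone, and those of S100a8 and S100a9 also with matched pairs as a block. Without the E16 forelimb digit 2 distal library 3 members were lower in the hindlimb and 2 higher. Without the E16 hindlimb digit 1 proximal or E17 hindlimb digit 2 distal library 5 were lower, and without the E16 hindlimb digit 1 distal or E16 hindlimb digit 2 distal library 6. Without the E16 forelimb digit 1 distal or E17 hindlimb digit 1 proximal library 7 were lower. Without the E16 hindlimb digit 2 middle, E17 forelimb digit 1 distal or E17 forelimb digit 2 middle library 8 were lower, and without the E16 hindlimb digit 2 proximal or E17 forelimb digit 1 proximal library 9.

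Whether the stage change differed between limbs was tested as well, and 0 of 50 members and 0 of 14839 genes passed in edgeR, and 0 members passed in DESeq2 or without the E16 forelimb digit 2 distal library. At an unadjusted p under 0.05, 4 members and 1810 genes (12.2%) did.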

How the data were processed

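The authors deposited whole-number read counts per gene symbol in 1 table per stage. Reads were processed with HISAT2 2.2.1 and StringTie 2.1.7 on GRCm39, per the submitters' processing notes. The counting step, the annotation release and any filter are not given in the sources used here, and the kit is not marked as strand-specific per the labels' protocols, so antisense reads cannot be told apart. The deposited TMM-normalised tables were scaled within a stage and were not used.

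Rows of one symbol were summed and the 2 tables joined by symbol, which kept 98.9% to 99.4% of the counts of each library. edgeR 4.0.16 in R 4.3.3 (TMM factors over the 20 libraries, quasi-likelihood F test, Benjamini-Hochberg adjustment over 14839 genes, threshold 0.05) fitted phalanx, stage and limb additively, with 13 residual degrees of freedom. Interactions had fits of their own with 12. Each p in the text is the adjusted p of that test, and SE is the size of the log2 fold change divided by the square root of F. The stage test and the interaction of stage and position were run on simulated counts. Those counts held stage changes only, with the same spread for all genes and no phalanx or limb effect. The comparisons of phalanges and limbs were not checked in this way. Levels per kilobase used exonic lengths of GENCODE M21, and windows of 100 bases shared with other genes came from its transcripts. Python 3.11.15 with pandas 2.3.3 made the tables.

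Members and lists were chosen with earlier results of these data known. Genes are named by rule: single genes and fused S100 genes, the 3 highest by mean CPM in each other class, the 3 highest and 3 lowest changes called per comparison, every member called in an interaction, and up to 2 of each companion list. S100a3, S100a7a, S100a9, the Sprr2a genes, Lce1a2 and Lce1e outside the interaction, and members named for not passing were chosen after their values were seen. Alternatives were another scaling, no filter, DESeq2 1.42.0, 1 row per symbol, matched pairs as a block, single stages, and each library left out in turn.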

Additional observations from a re-analysis of the deposited data

Results flagged for a closer look

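The stage change differed between distal and other phalanges for 4 members by the interaction test in edgeR. The log2 difference, distal change minus the change elsewhere, was -3.33 for Flg, -3.86 for Kprp, -5.40 for Lce1a1 and -5.92 for Lce1a2, and all 4 had the larger gain in CPM distally. Lce1a1 and Lce1a2 had few counts in the E16 middle and proximal libraries, so the size of their differences depends on the fit. Lce1a2 also passed the filter only with the help of E17 libraries. Symbols of the complex that 1 of the 2 count tables lists alone also carried counts. The read-through symbol of S100a6 and S100a7a reached 1541 counts in a library at E16, Sprr2e reached 90 counts at E17, and Lelp1 reached 8 counts at E16.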

How the results depend on the processing

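With single libraries left out, the number of tested members called higher at E17 was 46 to 49, distally against proximally 41 to 42, and distally against the middle phalanx 41 to 43. The smaller comparisons moved more. Members lower in the hindlimb numbered 3 to 19 (14 with all libraries) and higher ones 1 to 4. Members higher in the middle than the proximal phalanx numbered 0 to 4 and lower ones 0 to 1. Members lower in digit 1 numbered 2 to 22, and those with a smaller stage change distally 0 to 8. Without the filter on low counts 5 members were lower in the hindlimb and 2 had a smaller stage change distally. With DESeq2 3 members were higher in the hindlimb, 1 was lower in the middle than the proximal phalanx and 11 had a smaller stage change distally. With E17 libraries only 4 members were lower and 0 higher in the hindlimb, 0 were higher in the middle phalanx and 0 lower in digit 1. With E16 libraries only 0 were higher in the hindlimb, 0 higher and 1 lower in the middle phalanx, and 11 lower in digit 1. The value of Lce1k, middle minus proximal of digit 2, reversed with E16 libraries only, to -0.027 on the log2 scale, where both groups had 0 counts in all libraries. The causes were not tested. Matched pairs as a block left 49 members higher at E17 and 20 lower in the hindlimb, the S100a8 and S100a9 limb calls being lost. No paired analysis by replicate number was possible because each combination of stage, limb and phalanx has 1 library. At these depths 10 members were too low to test, and near-identical copies limit what counts of Sprr2a and Lce3 genes show.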
